A study of Rattus norvegicus with 12 samples.

Results

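The genes described here fold, sort and dispose of proteins in the endoplasmic reticulum of the rat heart, and report when that work falls behind. They are the disulfide isomerases Pdia3, Pdia4, Pdia6 and P4hb, the degradation factors Herpud1, Edem1 and Syvn1, and the stress sensors and effectors Xbp1, Atf6 and Ern1. They were chosen as a set of 10 gene symbols, looked up in the annotation of the bead array, and 9 of the 10 had a probe (1 each) among the 13337 genes and 22523 probes of the array. No probe carried the symbol Ern1 in the annotation used here, so Ern1 was not analysed here. Probes for 7 genes were detected on all 12 arrays and were tested among 10234 probes, and those for Edem1 and Atf6 were detected on 0 arrays and were not tested.

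Hearts of Sprague-Dawley rats, an outbred stock, had been sampled as total RNA from 4 hearts under an overload applied in systole, the phase of contraction, 4 hearts under an overload applied in diastole, the phase of filling, and 4 control hearts without load in either phase. The series title places the load on the left ventricle and asks whether gene expression depends on the phase in which load acts. No genotype, transgene, drug, age or duration of loading is given in the labels. The labels do not say whether each heart was a separate animal or which part of the heart was taken, so p-values speak only of the scatter among these hearts, part of which may be technical.

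Proteins that enter the endoplasmic reticulum are folded with the help of isomerases, which make and rearrange disulfide bonds. Proteins that fail to fold are passed back to the cytosol and degraded, a route called ER-associated degradation (ERAD). Misfolded protein also switches on the unfolded protein response (UPR) through the membrane sensors IRE1 (encoded by Ern1), ATF6 and PERK, and in the heart muscle cell this network shares its membrane with the machinery of calcium handling. Spliced XBP1 and cleaved ATF6 then act as transcription factors that bind known DNA elements in the promoters of stress-responsive genes.

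Those elements are shown first, because they are what sets some of these genes apart in sequence. The ER stress response element, which ATF6 recognises together with the factor NF-Y, has the letters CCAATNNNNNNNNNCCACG, and its variant ERSE-II has ATTGG, any 1 base and CCACG. Both share the short parts CCAAT and CCACG, and ATTGG is CCAAT read on the opposite strand. RefSeq promoter windows on build GRCr8, from 250 bases before to 50 bases after the start, were at hand for 6 of the 10 genes, namely Xbp1, Herpud1, Pdia4, P4hb, Syvn1 and Edem1. The 4 windows below belong to the 2 genes with a whole element, and to Pdia4 and Syvn1, which hold the short parts without one. The Herpud1 and Syvn1 windows lie inside the gene spans of the same build, at the start that the RefSeq table uses. Capitals mark each CCAAT and CCACG on either strand, in sequences that run 5′ to 3′ along the gene.
Xbp1 (chr14:84604373-84604672, plus strand): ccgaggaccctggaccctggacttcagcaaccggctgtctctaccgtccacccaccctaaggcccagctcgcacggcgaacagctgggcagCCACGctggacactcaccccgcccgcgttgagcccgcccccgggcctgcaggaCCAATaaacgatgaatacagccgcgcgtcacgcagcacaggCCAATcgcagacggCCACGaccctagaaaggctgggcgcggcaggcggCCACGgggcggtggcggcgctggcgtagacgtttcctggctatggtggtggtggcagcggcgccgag
Herpud1 (chr19:10614658-10614957, minus strand): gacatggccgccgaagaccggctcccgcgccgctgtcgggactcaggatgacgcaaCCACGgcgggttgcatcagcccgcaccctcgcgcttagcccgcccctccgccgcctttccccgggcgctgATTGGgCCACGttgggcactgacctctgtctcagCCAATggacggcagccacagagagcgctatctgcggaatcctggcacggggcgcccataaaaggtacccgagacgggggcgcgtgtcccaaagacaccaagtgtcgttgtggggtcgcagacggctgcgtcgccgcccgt
Pdia4 (chr4:78153142-78153441, minus strand): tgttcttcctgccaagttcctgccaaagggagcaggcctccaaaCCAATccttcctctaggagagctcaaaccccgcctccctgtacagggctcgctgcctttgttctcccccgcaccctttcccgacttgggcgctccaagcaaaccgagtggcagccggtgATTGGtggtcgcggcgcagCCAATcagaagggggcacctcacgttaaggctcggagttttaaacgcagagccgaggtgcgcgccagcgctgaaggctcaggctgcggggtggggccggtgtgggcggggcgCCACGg
Syvn1 (chr1:212768658-212768957, plus strand): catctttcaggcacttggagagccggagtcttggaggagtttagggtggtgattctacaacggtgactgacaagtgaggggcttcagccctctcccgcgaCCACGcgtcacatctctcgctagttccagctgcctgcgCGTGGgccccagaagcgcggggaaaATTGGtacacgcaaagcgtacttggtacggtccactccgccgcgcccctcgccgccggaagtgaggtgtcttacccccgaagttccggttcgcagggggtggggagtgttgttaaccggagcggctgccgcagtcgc

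Xbp1 held the whole ERSE starting at position -65, counted from the gene start, and Herpud1 held ERSE-II at position -124. Searched on both strands, ERSE was found in 21 of 27457 rat promoter windows (0.0765%) and ERSE-II in 15 (0.0546%), whereas CCAAT alone stood in 37.7% and CCACG alone in 32.5%. Pdia4 had 3 CCAAT and 1 CCACG, and Syvn1 had 1 and 2, in neither case at the spacing of an element. The windows of P4hb and Edem1 held CCAAT and CCACG too, again without a whole element. The UPR element core TGACGTGG, to which XBP1 binds, was found in none of the 6 windows and in 0.637% of all windows. These are matches of letters in 300 bases and do not show whether a factor binds there.

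Between 9249 and 9931 probes (41.1% to 44.1%) were detected per array, and raw median intensities ran from 86.3 to 115.5. The highest median was that of control 4, whose raw intensity was also the highest of the 12 for 7 of the 7 measured members. With quantile normalization the median gene stood at 0.00085 in systolic overload against control, -0.0057 in diastolic overload against control and 0.0070 between the overloads. With arrays scaled to a common median instead, the median probe stood at -0.17 in systolic overload against control and at -0.18 in diastolic overload against control, but at 0.014 in systolic against diastolic overload. The common median was that of all 22523 probes, most of them not detected, so this scaling rests on signal near background. The median probe is that of the 10234 tested probes. Leaving control 4 out of that scaling, a choice made after seeing the data, left -0.084 and -0.098. The comparisons with control therefore carry an offset that depends on the scaling, and the comparison of the 2 overloads hardly does. Values below are background-corrected, quantile-normalized log2 intensities, and levels of different probes are not compared.

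No member passed the test in any comparison, and neither did any other probe. With limma, 0 of 10234 probes (0%) had an adjusted p under 0.05 in each of the 3 comparisons, while unadjusted p-values under 0.05 were found for 5.79% of probes in systolic overload against control (593), 5.49% in diastolic overload against control (562) and 6.32% in systolic against diastolic overload (647). An F test over the 3 groups passed 0 probes as well (smallest adjusted p = 0.59). For the members this leaves a measured range: all 7 had 95% intervals within 2-fold in each of the 3 comparisons, and intervals lay within 1.5-fold for 6 of 7 in systolic overload against control, 7 of 7 in diastolic overload against control and 6 of 7 between the overloads. Herpud1 was the exception in both comparisons that involve systolic overload. These intervals are those of the quantile-normalized fit and leave out the offset between scalings. With median scaling, the differences in diastolic overload against control were -0.39 for Pdia6 and -0.36 for Syvn1. The ranges against control therefore hold for quantile normalization only.

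In systolic overload against control, 6 of 7 members had a higher mean, where 50.3% of all 7348 genes did, and the median log2 difference was 0.11 for the members and 0.00085 for all genes. With median scaling 1 of 7 (Herpud1) had a higher mean, and 5 of 7 lay above the shifted median, all but Pdia6 and P4hb. With that scaling and without control 4, 4 of 7 had a higher mean (Pdia4 0.040, Herpud1 0.36, Syvn1 0.013 and Xbp1 0.011). In diastolic overload against control, 4 of 7 members had a higher mean (47.9% of all genes), with a median of 0.0022, and 0 of 7 with median scaling. In systolic against diastolic overload, 6 of 7 had a higher mean (52.2% of all genes), with a median of 0.13, and 7 of 7 with median scaling. Each pair of comparisons shares 4 hearts. Groups did not overlap for 0 of 7 members in any comparison, where 1.73%, 0.871% and 1.54% of genes had all hearts of the group named first above the other group and 1.57%, 1.61% and 1.35% had all below.

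**Figure D1:**
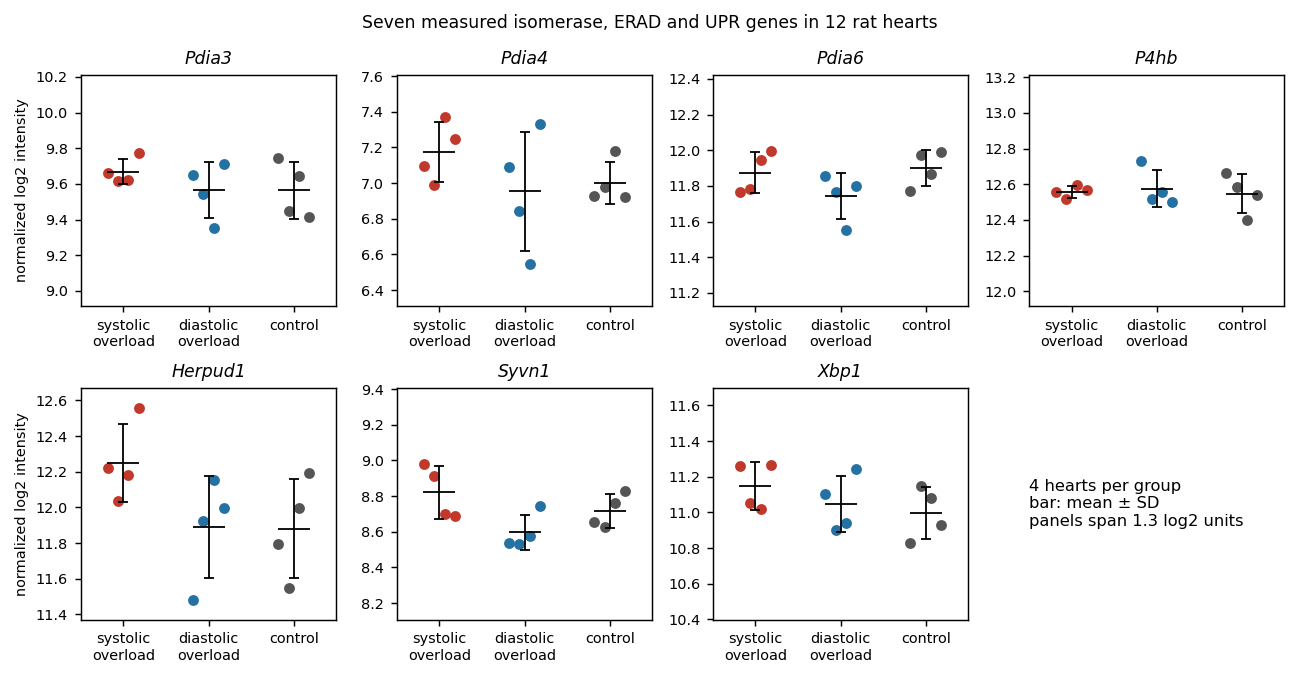
Normalized log2 intensity of the 7 measured members in 4 hearts each under systolic overload, under diastolic overload and in control, with mean and SD; every panel spans the same height. The groups overlap in every panel, P4hb is the tightest under systolic overload, and Herpud1 covers the widest range.

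No disulfide isomerase passed the test, and the largest difference among them was 0.22 in log2. Gene positions are those of GRCr8. P4hb (chr10:106335300-106346911), the classical protein disulfide isomerase and also the beta subunit of the collagen prolyl 4-hydroxylase, stood at 12.56, 12.52, 12.59 and 12.57 under systolic overload, at 12.73, 12.52, 12.56 and 12.50 under diastolic overload and at 12.66, 12.58, 12.40 and 12.54 in control. All systolic hearts lay inside the control range. Its log2 difference was 0.012 ± 0.084 (SE) in systolic overload against control (95% interval of the fold 0.889 to 1.14), 0.029 ± 0.084 in diastolic overload against control and -0.018 ± 0.084 between the overloads, and the sign flipped under median scaling in all 3. Within groups it varied by an SD of 0.090, which is lower than that of all but 6.37% of tested probes.

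Pdia3 (chr3:128841781-128865733), known as ERp57, works on glycoproteins held by calnexin and calreticulin. It stood at 9.66, 9.62, 9.62 and 9.77 under systolic overload, at 9.65, 9.55, 9.36 and 9.71 under diastolic overload and at 9.75, 9.45, 9.65 and 9.41 in control. The systolic hearts kept to a narrow band, with 1 of 4 above every control and every diastolic heart. The difference was 0.11 ± 0.10 in systolic overload against control (fold 1.08, interval 0.921 to 1.26; negative with median scaling), 0.0022 ± 0.10 in diastolic overload against control (negative with median scaling) and 0.10 ± 0.10 between the overloads. Single hearts moved these values: in systolic overload against control the difference was 0.055 without control 4, 0.066 without control 2 and 0.17 without control 1, and between the overloads it was 0.033 without diastolic overload 3.

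Pdia6 (chr6:45791704-45808947), also called P5, an isomerase that associates with the chaperone BiP and acts on the IRE1 sensor, was at 11.77, 11.78, 11.95 and 11.99 under systolic overload, at 11.86, 11.76, 11.55 and 11.80 under diastolic overload and at 11.77, 11.97, 11.87 and 11.99 in control. Each diastolic heart lay under the control mean, and 2 of 4 lay below every control. The difference in diastolic overload against control was -0.16 ± 0.095 (fold 0.896, interval 0.777 to 1.03, limma adjusted p = 0.93; -0.39 with median scaling). It was -0.028 ± 0.095 in systolic overload against control (-0.22 with median scaling) and 0.13 ± 0.095 in systolic against diastolic overload (0.17 with median scaling). Without diastolic overload 3 it was -0.095 in diastolic overload against control and 0.066 between the overloads.

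Pdia4 (chr4:78134144-78153191), or ERp72, a large isomerase found in complexes of ER chaperones, was the most variable of the 4. It stood at 7.10, 6.99, 7.37 and 7.25 under systolic overload, at 7.09, 6.84, 6.55 and 7.33 under diastolic overload and at 6.93, 6.98, 7.18 and 6.92 in control. The diastolic hearts spanned 0.78 in log2, with the lowest and the second highest of all 12 values among them, against 0.38 in the systolic and 0.25 in the control hearts. The difference was 0.17 ± 0.15 in systolic overload against control (fold 1.13, interval 0.901 to 1.41; -0.030 with median scaling), -0.048 ± 0.15 in diastolic overload against control (-0.23 with median scaling) and 0.22 ± 0.15 in systolic against diastolic overload (fold 1.17, interval 0.931 to 1.46). Without systolic overload 3 the first value was 0.11. Without diastolic overload 3 the last value was 0.087, and without diastolic overload 4 it was 0.35. The difference in diastolic overload against control was 0.087 without diastolic overload 3 and -0.17 without diastolic overload 4.

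Among the ERAD genes, Herpud1 (chr19:10604360-10624168) had the largest difference of all members. It encodes a membrane protein that organises the ERAD complex and is a well known target of the UPR. Herpud1 stood at 12.22, 12.04, 12.18 and 12.56 under systolic overload, at 11.48, 11.92, 12.16 and 11.99 under diastolic overload and at 11.79, 11.55, 11.99 and 12.19 in control. All systolic hearts lay above both other means, 3 of 4 lay above every diastolic heart and 2 of 4 above every control. Group means were 12.25 ± 0.22 under systolic overload, 11.89 ± 0.29 under diastolic overload and 11.88 ± 0.28 in control (SD, n = 4 each).

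The log2 difference of Herpud1 in systolic overload against control was 0.37 ± 0.17 (fold 1.29, interval 1.00 to 1.66, limma adjusted p = 0.81). Its size exceeded that of 95.6% of tested probes. In systolic against diastolic overload it was 0.36 ± 0.17 (fold 1.28, interval 0.996 to 1.66, limma adjusted p = 0.81), and in diastolic overload against control 0.0078 ± 0.17. With median scaling the difference from control was 0.17 in systolic overload, while the median probe stood at -0.17. Herpud1 also varied more within groups (SD 0.26) than 78.9% of probes. Without diastolic overload 1, the heart with the lowest value, the difference between the overloads was 0.23.

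Syvn1 (chr1:212766736-212775426) encodes HRD1, the ubiquitin ligase in the ER membrane to which HERPUD1 binds. It stood at 8.98, 8.91, 8.70 and 8.69 under systolic overload, at 8.53, 8.53, 8.58 and 8.74 under diastolic overload and at 8.65, 8.63, 8.76 and 8.83 in control. Control lay between the overloads: 2 of 4 systolic hearts were above every control, 3 of 4 diastolic hearts were below every control, and diastolic overload 4 lay above the lowest systolic hearts. In systolic against diastolic overload the log2 difference was 0.22 ± 0.095 (fold 1.17, interval 1.01 to 1.35, limma adjusted p = 0.75). With median scaling it was 0.23, with no overlap between these groups. The share of all genes without overlap under that scaling is not given here, so this cannot be weighed against it. The difference from control was 0.10 ± 0.095 in systolic overload (-0.13 with median scaling) and -0.12 ± 0.095 in diastolic overload (-0.36 with median scaling). Without systolic overload 1 the difference in systolic overload against control was 0.051.

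Edem1, a mannosidase-like lectin that takes misfolded glycoproteins out of the folding cycle, was not well above background on any array. Its raw intensities were 70.8 to 81.6 under systolic overload, 69.3 to 86.4 under diastolic overload and 69.8 to 87.3 in control, with detection p-values of 0.34 to 0.91 over the 12 hearts. Atf6, the sensor that is cut in the Golgi to free a transcription factor, was not well above background either, at 75.9 to 100.2 under systolic overload, 83.5 to 89.1 under diastolic overload and 82.3 to 105.8 in control (detection p 0.11 to 0.37). No difference is given for either gene, and these probes do not show whether the transcripts were absent. Neither the sensor Atf6 nor Ern1 could therefore be followed in these hearts, and Xbp1 is the only measured member of the signalling arm.

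Xbp1 (chr14:84604623-84609707), whose mRNA is spliced by IRE1 to give the active factor, stood at 11.26, 11.05, 11.02 and 11.27 under systolic overload, at 11.10, 10.90, 10.94 and 11.24 under diastolic overload and at 10.83, 11.15, 11.08 and 10.93 in control. All systolic hearts lay above the control mean, 2 of 4 above every control and 2 of 4 above every diastolic heart. The log2 difference was 0.15 ± 0.11 in systolic overload against control (fold 1.11, interval 0.946 to 1.31, limma adjusted p = 0.88; -0.066 with median scaling), 0.051 ± 0.11 in diastolic overload against control (-0.19 with median scaling) and 0.10 ± 0.11 between the overloads. In systolic overload against control it was 0.098 without control 1. Between the overloads it ran, with 1 array left out, from 0.055 without diastolic overload 2 to 0.17 without diastolic overload 4, and was also 0.066 without systolic overload 1, 0.064 without systolic overload 4 and 0.068 without diastolic overload 3. The array gives 1 value for Xbp1 and does not separate spliced from unspliced mRNA.

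**Figure D2:**
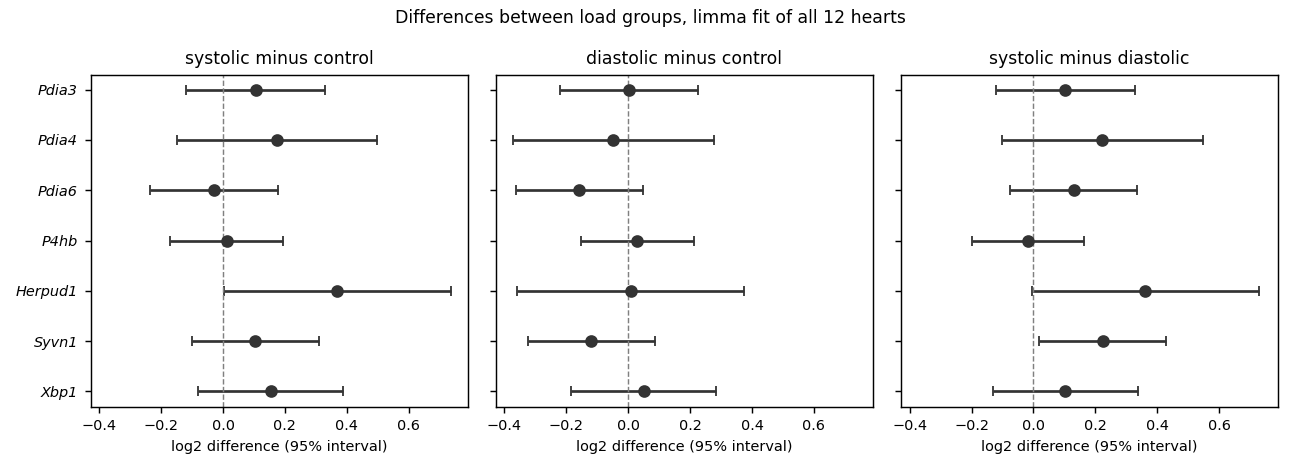
Log2 differences of the 7 measured members with 95% intervals from limma, in the 3 comparisons named above the panels, each as first group minus second. Intervals cover 0 for 6, 7 and 6 of the 7 members from left to right, and the exceptions are Herpud1 in systolic minus control and Syvn1 in systolic minus diastolic; with median scaling 5, 4 and 1 of the 7 differences changed sign.

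The members did not vary as 1 block from heart to heart. Over the 21 pairs of measured members, Pearson's r across the 12 hearts had a median of 0.19 and ran from -0.42 (P4hb and Herpud1) to 0.70 (Pdia3 and Pdia4), as a description of values that share their arrays. Pdia4 followed Xbp1 at r = 0.61, and at 0.80 without the 2 hearts farthest from the Pdia4 median. Pdia4 followed Pdia6 at 0.61 too, but at 0.12 without those hearts, and the correlation of Pdia3 with Pdia4 was 0.42 without the 2 hearts farthest from the Pdia3 median. Diastolic overload 3 had the lowest value of the 12 for Pdia3, Pdia4 and Pdia6, but not for P4hb, Herpud1, Syvn1 or Xbp1. Systolic overload 4 had the highest value for Pdia3, Pdia6, Herpud1 and Xbp1, and diastolic overload 2 lay under the mean of 12 hearts for 7 of 7 members.

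**Figure D3:**
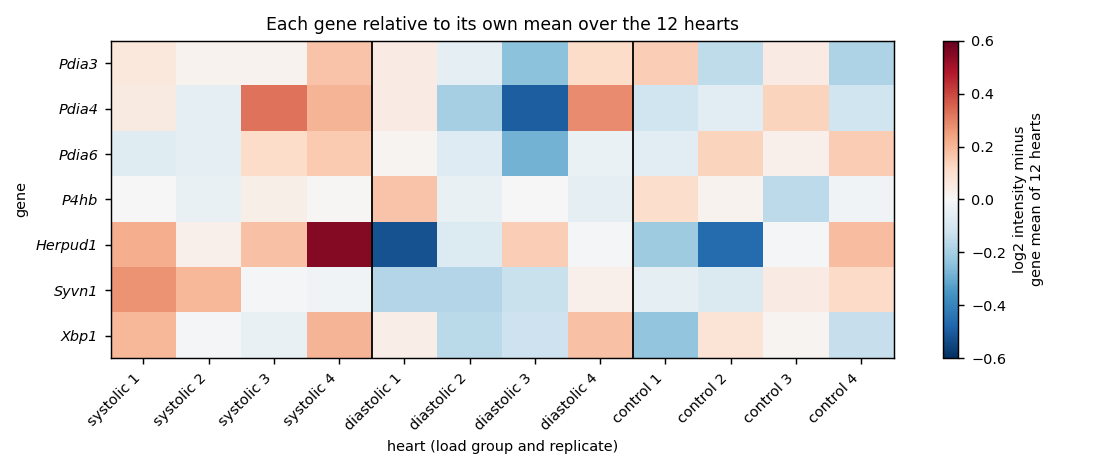
Each row is 1 of the 7 measured members and each column 1 heart; colour shows how far a heart lies from the gene's 12-heart average, in normalized log2 intensity. Diastolic overload 3 is the lowest heart for Pdia3, Pdia4 and Pdia6 and systolic overload 4 the highest for Pdia3, Pdia6, Herpud1 and Xbp1, while P4hb stays close to 0 throughout.

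Among the genes most like the mean profile of the 4 isomerases were Irak2, a kinase of interleukin-1 receptor signalling (r = 0.87 over 12 hearts), Jade3 (0.83), Aqp7, an aquaglyceroporin (0.81), and Ddit4, an inhibitor of mTOR signalling (0.80). Herpud1 was most like Fastkd3 (0.90), Cdnf, a secreted relative of the ER protein MANF (0.88), and Tacc2 (0.88). Syvn1 was most like Trak1 (0.88), Crim1 (0.87) and the connexin Gja3 (0.86), and Xbp1 was most like Stxbp5 (0.84), Ankrd7 (0.82) and Bicra (0.81). The mean level of Ankrd7, 5.16, was close to background. These are among the highest of 7348 genes and describe these 12 hearts only. Without the 2 hearts farthest from the profile's median, r for the genes named ran from 0.54 (Jade3) to 0.85 (Fastkd3).

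Genes that work beside the members were read from lists. Of 17 measured genes among the other disulfide isomerases and oxidative folding enzymes, 0 passed in any comparison, 6 had a higher mean in systolic overload against control (median -0.038; 2 with median scaling), 7 in diastolic overload against control (median -0.028; 2 with median scaling) and 8 in systolic against diastolic overload (median -0.037; 8 with median scaling). P4ha1, the alpha subunit that joins P4hb in the collagen hydroxylase, stood at 8.35 ± 0.26 under systolic overload, 7.93 ± 0.17 under diastolic overload and 8.01 ± 0.29 in control (SD, n = 4 each). Its difference between the overloads was 0.42 ± 0.16 (limma adjusted p = 0.74), where that of P4hb was -0.018. Mttp, whose lipid transfer complex also contains P4hb, was at 5.45 ± 0.29 under systolic overload, 5.78 ± 0.20 under diastolic overload and 5.71 ± 0.20 in control. These Mttp levels were close to background. The thiol oxidase Qsox1 differed from control by -0.22 under systolic and -0.25 under diastolic overload, and Pdia2 by -0.14 under systolic and -0.21 under diastolic overload.

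The other ERAD genes were centred on 0. Of 28 measured, 17 had a higher mean in systolic overload against control (median 0.011; 3 with median scaling), 13 in diastolic overload against control (median -0.0081; 4 with median scaling) and 17 between the overloads (median 0.024; 17 with median scaling), with 0 passing the test. Selenos, a selenoprotein of the HRD1 complex, stood at 10.53 ± 0.087 under systolic overload, 10.34 ± 0.12 under diastolic overload and 10.52 ± 0.074 in control (SD, n = 4 each), so that its difference between the overloads was 0.19 ± 0.086 (limma adjusted p = 0.79). The largest differences from control were those of Nploc4, a cofactor of the p97 ATPase (0.31 under systolic and 0.14 under diastolic overload), and Sec61g, a subunit of the translocon (0.28 under systolic and 0.26 under diastolic overload). Nploc4 had low levels, at 5.98 under systolic overload, 5.80 under diastolic overload and 5.66 in control. Ube2j1, an ER ubiquitin-conjugating enzyme, differed by -0.21 between the overloads, at levels close to background (5.06 under systolic and 5.27 under diastolic overload). In any comparison, 0 of the 28 genes were free of overlap.

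Of 20 measured genes among the other UPR sensors and signalling factors, 10 had a higher mean in systolic overload against control (6 with median scaling), 10 in diastolic overload against control (2 with median scaling) and 8 between the overloads (8 with median scaling), with 0 passing. Trib3, a pseudokinase target of the PERK branch, stood at 6.99 ± 0.29 under systolic overload, 7.06 ± 0.31 under diastolic overload and 6.56 ± 0.30 in control (SD, n = 4 each), with differences from control of 0.43 and 0.50. Chac1, a glutathione-degrading enzyme of the same branch, differed from control by 0.40 under systolic and 0.46 under diastolic overload, and Creb3l1, a membrane-bound relative of ATF6, by -0.44 under systolic and -0.38 under diastolic overload. Chac1 stood close to background, at 5.76 under systolic overload, 5.82 under diastolic overload and 5.36 in control. Between the overloads, Ddit3, which encodes CHOP, differed by 0.34 and Creb3l2 by 0.26. The limma adjusted p-values of these differences were between 0.81 and 0.93.

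The ER lumen chaperones are shown beside the members because they share the same regulators. Of 21 measured chaperones, 0 passed the test, 14 had a higher mean in systolic overload against control (median 0.085; 7 with median scaling), and 5 of 21 (23.8%; Calr, Creld2, Dnajb9, Hspa5 and Manf) had all systolic hearts above all controls, where this held for 1.73% of genes and for 0 of 7 members. Fkbp10 (-0.44) and Fkbp2 (-0.36), both prolyl isomerases, had all systolic hearts below all controls, as did 1.57% of genes. In diastolic overload against control 8 had a higher mean (median -0.038; 2 with median scaling), 0 had all diastolic hearts above all controls, and Calr had all of them below. In systolic against diastolic overload, 16 had a higher mean (median 0.11; 16 with median scaling) and 6 (28.6%) had all systolic hearts above all diastolic hearts, against 1.54% of genes. This pattern of the chaperones was known in these data before, so it is given only to place the members. Dnajb9, a co-chaperone of BiP, stood at 9.67 ± 0.16 under systolic overload, 9.21 ± 0.25 under diastolic overload and 9.13 ± 0.094 in control (SD, n = 4 each). Fkbp10, a collagen chaperone, went the other way at -0.45 ± 0.11 between the overloads, with all systolic hearts below all diastolic hearts (1.35% of genes). Sdf2l1 differed from control by 0.35 under systolic and 0.33 under diastolic overload, and Fkbp2 by -0.29 under diastolic overload. The difference between the members and the chaperones was not tested. Of the 7 measured cytosolic heat shock chaperones, 4 had a higher mean in systolic overload against control (4 with median scaling), 4 in diastolic overload against control (2 with median scaling) and 3 in systolic against diastolic overload (5 with median scaling). Hspa2 differed by 0.74 and Dnajb1 by -0.31 between the overloads, and Hspa4 differed from control by 0.38 under systolic and 0.42 under diastolic overload.

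**Figure D4:**
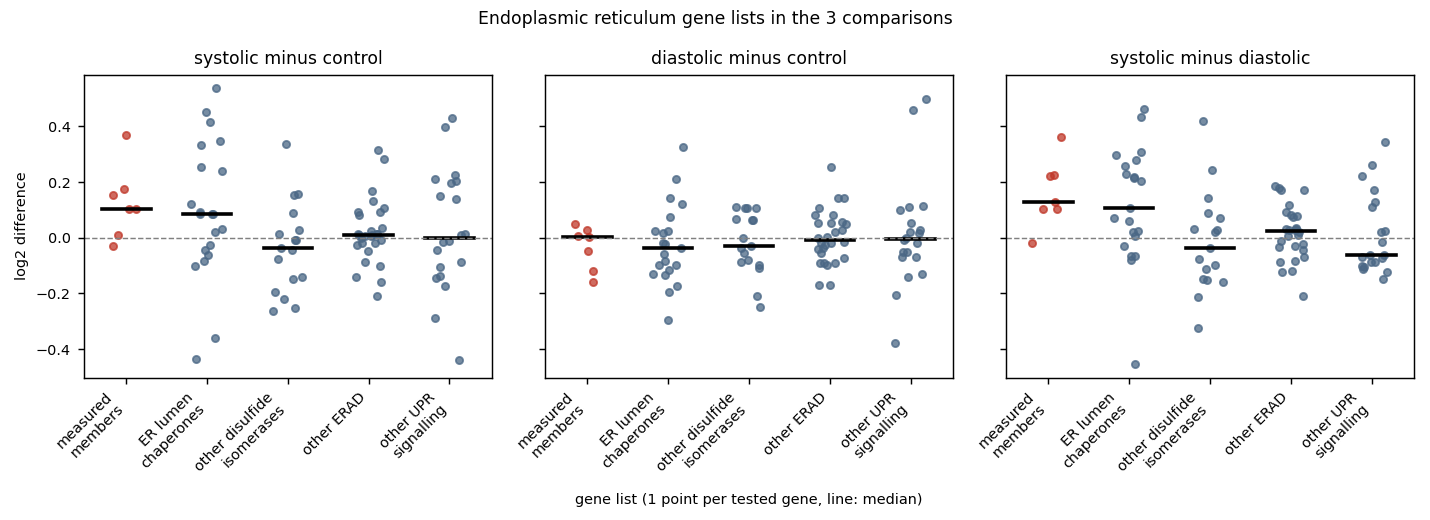
Log2 differences of the 7 measured members and of 4 lists of other endoplasmic reticulum genes in the 3 comparisons, with 1 point per gene and a line at the median. The lists are 21 ER lumen chaperones, 17 other disulfide isomerases and oxidative folding genes, 28 other ERAD and 20 other UPR signalling genes. The list labelled other disulfide isomerases in the picture is the one of 17 genes and holds both kinds. Medians are 0.11 and 0.085 for members and chaperones in systolic minus control and 0.13 and 0.11 in systolic minus diastolic, and lie between -0.061 and 0.024 for the other lists; with median scaling 1 of 7 members and 7 of 21 chaperones lie above 0 in systolic minus control.

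Cell types were read from marker genes, since in RNA from heart tissue fewer cells of a type and less RNA per cell cannot be told apart. The 10 cardiomyocyte markers on the array were all measured, and their summed linear intensity was 184266 to 193020 under systolic overload, 183259 to 192274 under diastolic overload and 163779 to 192471 in control. Among them Ckm (0.099) had all systolic hearts above all controls (1.73% of genes). Fibroblast markers (10 of 10 measured), the genes of the main collagen-making cells, summed to 21526 to 26827 under systolic overload, 21680 to 33190 under diastolic overload and 21358 to 27162 in control. Such sums mostly follow the brightest probes, here Dcn and Col1a2, and can hide single markers. Between the overloads Postn differed by -1.32, Col3a1 by -0.81 and Pdgfra by 0.39, and 3 of the 10 markers had a higher mean under systolic overload. Col3a1 had all systolic hearts below all diastolic hearts (1.35% of genes), and 0 of 10 passed the test. Endothelial markers (7 of 8 on the array measured) summed to 2437 to 3202 under systolic overload, 2365 to 4405 under diastolic overload and 2672 to 4863 in control, and macrophage markers (6 of 7) to 1708 to 2296 under systolic overload, 1816 to 3479 under diastolic overload and 1640 to 2115 in control. Against control, 1 of 7 endothelial markers had a higher mean under each overload (50.3% and 47.9% of all genes). Emcn (-0.44) had all systolic hearts below all controls (1.57% of genes). Macrophage markers had a higher mean for 5 of 6 under systolic and 6 of 6 under diastolic overload. Adgre1 (0.55) had all diastolic hearts above all controls (0.871% of genes). T cell markers (5 of 6) summed to 229 to 340 under systolic overload, 330 to 504 under diastolic overload and 237 to 368 in control. Against control, 2 of 5 had a higher mean under systolic and 4 of 5 under diastolic overload. Cd3d (0.87) had all diastolic hearts above all controls (0.871% of genes). Cd3d (5.47) and Adgre1 (5.57) were close to background in control, and no marker passed the test in any comparison. Of 7 markers of B and plasma cells, which make much Xbp1, 6 were not tested for want of detection, the defining Mzb1, Sdc1 and Tnfrsf17 among them. Smooth muscle and pericyte markers (2 of 4) summed to 363 to 470 under systolic overload, 331 to 430 under diastolic overload and 319 to 496 in control. The part of these levels in the differences of the members was not tested.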

How the data were processed

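Total RNA of 12 rat hearts had been labelled with biotin and hybridised to Illumina bead arrays, per the labels' protocols. The deposited main table, not normalized per the file headers, gives linear bead intensities, and a deposited detection p-value in steps of 1/825. A second deposited table holds the authors' intensity values after a normalization that, from the values, is quantile on a linear scale. The software used was not given in the sources used here. Of 22523 probes, 13793 had 1 gene symbol in the platform annotation, 0 several and 8730 none, and 9 of the 9 member probes matched the gene table of GRCr8 by Entrez identifier. All columns of sample values were mapped (0 left over).

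Background correction and quantile normalization used neqc in limma 3.58.1 (R 4.3.3), adding 16 ahead of the log2 step. The test took in probes detected (p below 0.05) on 4 or more of the 12 arrays. All 12 arrays entered a single fit of the 3 group means (lmFit, eBayes), with Benjamini-Hochberg adjustment per comparison at 0.05. A fold is 2 to the power of the log2 difference, and the number of hearts limits its precision (median standard error 0.13). The fit was tested on simulated data. For genes with several tested probes, the one with the highest mean was used.

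The members and all lists were chosen with earlier results of these data known. Named genes are every member, from each list the 2 genes with the largest absolute difference per comparison, the 5 genes most like the isomerases' mean profile (1 of them is not reported here) and the 3 most like each other tested member; Eif2ak3, the chaperones without overlap and the promoter-matched genes are named outside that rule, after their values were seen. Promoter windows came from RefSeq (GRCr8). Replicate numbers were not treated as pairs in the main fit (r of same-numbered deviations from group means -0.27 to 0.33). Alternatives were other normalizations, filters, weights, variance priors, the replicate block and each array left out.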

Additional observations from a re-analysis of the deposited data

Results flagged for a closer look

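Of 27 sets of 4 hearts (9 probes in 3 groups), 1 had a heart far from the other three of its group by Dixon's ratio, which chance alone gives in about 1 in 20. It was Edem1 in control 2, at a log2 intensity of 4.50, where the other controls stood at 4.62, 4.62 and 4.64. The probe was not well above background in any heart, so this gap lies within background signal.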

How the results depend on the processing

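All settings gave 0 probes past the threshold in each comparison. This includes the replicate block (smallest limma adjusted p 0.76 in systolic overload against control, 0.69 in diastolic overload against control and 0.49 between the overloads). The labels do not say that replicate numbers mark pairs. By deviations from group means, 0 of 12 samples correlated best with its own number in both other groups. Control 3 and diastolic overload 3 were, however, each other's closest match (r = 0.33). No slide was given, so no slide block was run. Settings that changed only the filter, groups fitted, variance estimate or replicate block left each difference unchanged, so its sign could not flip. With those settings included, 179 of 189 member differences kept their sign when all arrays were kept, and 10 were reversed, all with median scaling. Against control these were, under systolic overload, Pdia3 -0.12, Pdia4 -0.030, P4hb -0.20, Syvn1 -0.13 and Xbp1 -0.066, and under diastolic overload Pdia3 -0.24, P4hb -0.21, Herpud1 -0.21 and Xbp1 -0.19; between the overloads it was P4hb at 0.012. Members with a higher mean then numbered 1 in systolic overload against control and 0 in diastolic overload against control, and 1 (Syvn1) did not overlap in diastolic overload against control and between the overloads. The offset of the median probe, -0.17 and -0.18 against control, has the same sign. Shares of all genes without overlap are given for quantile normalization only, so they do not apply to the counts with median scaling. With median scaling and without control 4, added after seeing the data, Pdia3 and P4hb were at -0.067 and -0.13 in systolic overload against control, Pdia3, P4hb, Herpud1 and Xbp1 at -0.19, -0.15, -0.020 and -0.12 in diastolic overload against control, P4hb at 0.012 between the overloads, and counts were 4 higher in systolic overload against control, 0 higher and 1 not overlapping in diastolic overload against control and 1 not overlapping between the overloads.

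With 1 array left out, 231 of 252 differences kept their sign. These include comparisons without the left-out array's group, where the difference could not change. Ranges that crossed 0 were -0.072 to 0.0073 for Pdia6 and -0.037 to 0.051 for P4hb in systolic overload against control; -0.047 to 0.072 for Pdia3, -0.17 to 0.087 for Pdia4, -0.022 to 0.068 for P4hb, -0.10 to 0.14 for Herpud1 and -0.014 to 0.10 for Xbp1 in diastolic overload against control; and -0.042 to 0.033 for P4hb between the overloads. Members with a higher mean numbered 5 to 7, 1 to 4 and 6 to 7 in the 3 comparisons, and members without overlap 0 to 1 in each (in systolic overload against control Herpud1 without control 4 and Pdia4 without control 3; between the overloads Herpud1 without systolic overload 2 or diastolic overload 3 and Syvn1 without diastolic overload 4; Pdia6 without control 1 and Syvn1 without diastolic overload 4 in diastolic overload against control). The shares of all genes without overlap given above are for 4 hearts against 4, so they do not apply where an array of a compared group was left out. Herpud1 kept 0.26 to 0.47 in systolic overload against control and 0.23 to 0.45 between the overloads, and Syvn1 0.17 to 0.27 between the overloads.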

Other observations

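Genes can also be grouped by the ERSE letters in their promoter windows. Of the 21 promoter windows that hold them, 12 belong to measured genes, 6 of them ER lumen chaperones (Hspa5, Hsp90b1, Calr, Canx, Creld2 and Dnajc3), 1 Xbp1, and 5 genes outside the lists used here (Ppm1l, Hnrnpa3, Ankmy2, Zfand2a and Zfp57). In systolic against diastolic overload 11 of these 12 had a higher mean (11 with median scaling; 52.2% of all genes), with a median log2 difference of 0.21, and 5 of 12 had all systolic hearts above all diastolic hearts (1.54% of genes). These 5 were Calr, Canx, Dnajc3, Hsp90b1 and Hspa5, all of them chaperones, and neither Xbp1 nor any gene outside the lists was among them. In systolic overload against control 10 of 12 had a higher mean (50.3% of all genes, median 0.12, 4 with median scaling). In diastolic overload against control it was 5 of 12 (47.9% of all genes, median -0.078, 1 with median scaling). No gene of the set passed limma's test. The 6 chaperones are genes whose pattern was known in these data before, so the set is no independent support. Among the 5 genes outside the lists, differences between the overloads were 0.23 for Ppm1l, 0.13 for Zfp57, 0.085 for Ankmy2, 0.022 for Hnrnpa3 and -0.10 for Zfand2a.

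ERSE-II was held by 8 measured genes. Of these, 8 of 8 had a higher mean under systolic than under diastolic overload (52.2% of all genes, median log2 difference 0.11), also with median scaling. In that comparison 0 of 8 were free of overlap, where 1.54% of genes had all systolic hearts above all diastolic hearts and 1.35% all below. Herpud1 had the largest of these differences at 0.36, followed by Prkcz at 0.32, which stood close to background (5.44 under systolic and 5.12 under diastolic overload). Defb52 was close to background too (5.36 under systolic and 5.23 under diastolic overload). Ttll10 (5.93 and 5.85) and Ggct (6.00 and 5.86) were low as well. The smallest difference was that of Nucb1 at 0.024. In systolic overload against control 4 of the 8 had a higher mean (4 with median scaling, 50.3% of all genes). In diastolic overload against control it was 4 of 8 (2 with median scaling, 47.9% of all genes), and 1 had all diastolic hearts below all controls (1.61% of genes). The set holds Herpud1 and the chaperone Dnajb11, chosen with earlier results known, so it is no independent support. Eif2ak3, which encodes the sensor PERK, stood at 5.43 ± 0.19 under systolic overload, 5.52 ± 0.21 under diastolic overload and 5.52 ± 0.37 in control (SD, n = 4 each). These Eif2ak3 levels were close to background.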
